A study of Rattus norvegicus with 3 samples.

Results

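Amino acid transporter genes were read in neonatal rat ventricular cardiomyocytes, heart muscle cells taken from the ventricles of newborn rats and grown in culture. They were chosen by a rule on names, set with earlier results of these data known. The rule took every rat gene whose RefSeq symbol starts with Slc1a, Slc3a, Slc7a, Slc36a, Slc38a or Slc43a. It added Slc6a6, Slc6a9, Slc6a14, Slc6a15, Slc6a17, Slc6a19 and Slc6a20. The RefSeq table held 54 such symbols. It listed Slc6a20 only as Slc6a20a and Slc6a20b, which the rule does not name. Of the 54, 47 had a probe on the array, among 15155 genes with a probe in all. The other 7, Slc7a1, Slc38a10, Slc38a11, Slc7a12l1 and the pseudogenes Slc3a2-ps1, Slc7a13-ps1 and Slc7a13-ps2, had none in the files used here. The brightest probe stood for each gene, and 10 of the 47 had a second one. On all 3 arrays 37 of the 47 were well above background, a call made spot by spot by the scanner software, as were 11600 of the 15155 genes. A further 6 were well above it on 1 or 2 arrays, and 4 (Slc1a6, Slc6a14, Slc7a4 and Slc36a2) on none.

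The study asked how 11β-HSD1, which turns inactive 11-keto glucocorticoids back into active hormone, acts on the hypertrophy of heart muscle cells. Cells of all 3 groups were transfected. Control cells received an empty vector, HSD1 cells a vector that expresses 11β-HSD1, and HSD1 plus BVT cells the same vector along with BVT.2733, an inhibitor of the enzyme. Total RNA of 1 pool of cells per group was labelled with Cy3 and read on 1 one-colour Agilent array. Each difference therefore compares 2 arrays of pooled cells, with no replicate and no test. The sources used here do not give the strain, the dose, the time, the promoter of the vector or how many cultures were pooled. A group with inhibitor and empty vector is not among the 3. In bulk RNA of this kind, fewer cells of a type and less RNA per cell cannot be told apart. The control and HSD1 arrays were scanned together and the HSD1 plus BVT array in another scan, so the inhibitor and the scan cannot be told apart.

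Amino acid carriers move amino acids across the plasma and organelle membranes. Some drive them inward with sodium, protons or chloride, and others exchange one amino acid for another. The exchangers of the SLC7 family work as a light chain bound to a heavy chain, Slc3a1 or Slc3a2, while the cationic members of that family work alone. In muscle, the carriers supply leucine and glutamine, which growth signalling through mTORC1 senses, and cystine for glutathione. Several carrier genes are known targets of ATF4, the transcription factor that cells use when amino acids run short.

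A level is given here as log2 of a probe's processed signal minus log2 of the array's 75th percentile, so a negative level means a signal below that percentile. Levels of different probes cannot be set against each other. A log2 ratio is the difference of 2 levels of 1 probe, and a gene is called higher or lower where the ratio reached 2-fold and both arrays were well above background. The software's own error of a signal, carried to a ratio, is given after ±. It covers the array and not the cells. Where only 1 of 2 arrays was well above background, a floor estimate of the fold difference is given. For it, the dim array takes the level of its dimmest probe still well above background, or the gene's own level if that is brighter. Other probes not well above background can be brighter than that floor, so the estimate is not a minimum. Hsd11b1, the targeted gene, had a level of 3.39 on the control array, 3.86 with the vector and 3.76 with vector and inhibitor. Its log2 ratio of 0.47 for HSD1 against control was under 2-fold. Detection of vector-derived RNA by this probe was not tested, so the ratio does not measure how strongly the vector was expressed. All 10 cardiomyocyte markers were well above background on every array, and so were all 9 fibroblast markers and all 6 smooth muscle markers. RNA of genes used as markers of other heart cells was thus present in all 3 pools. The summed linear level of the cardiomyocyte markers was 283, 317 and 331 times the percentile in control, HSD1 and HSD1 plus BVT, and that of the fibroblast markers 178, 178 and 172. For 7 endothelial markers with a probe the sum was 5.22, 8.07 and 9.63, with Emcn and Tie1 not well above background on any array. Kdr makes up most of that sum, and between HSD1 and HSD1 plus BVT, 3 of the 5 measured ones were below 0, with a median log2 ratio of -0.30. The smooth muscle sum was 40.8, 46.6 and 35.8. Macrophage markers summed to 1.11, 1.12 and 1.31 and neural markers to 1.23, 2.05 and 2.15. The part of these other cells in the results was not tested.

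Few transporter genes reached 2-fold between any arrays, as was so for all genes. For HSD1 against control, 1 of the 37 measured members (Slc43a3) was higher and 0 were lower, where 1.89% of all 11876 measured genes were called in either direction, 1.34% higher and 0.547% lower. The members' log2 ratios ran from -0.71 to 1.05, and 32 of 37 lay within 1.5-fold, 86.5% against 92.1% of all genes. Their median was 0.14, beside 0.06 over all genes. For HSD1 plus BVT against HSD1, 1 of 37 members (Slc7a14) was higher and 0 were lower, where 2.08% of all genes were called, 1.5% higher and 0.581% lower. The median was 0.14, beside 0.01 over all genes. When the background was corrected by normexp, it was -0.10, beside -0.08 over all genes. For HSD1 plus BVT against control, 2 of 38 members (Slc7a14 and Slc38a3) were higher and 0 were lower, where 3.69% of all genes were called, 2.94% higher and 0.751% lower. The median was 0.20, beside 0.05 over all genes. Both the last comparison and the first use the control array, and each pair of comparisons shares 1 array, so their values stand side by side and are not independent. The scaling itself moved the median of all genes in the last comparison from 0.05 to -0.04 under quantile normalization, where the members' median was 0.09.

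The control array gave the lowest level for 21 of the 37 members and the highest for 6. That is 56.8% lowest and 16.2% highest, beside 42.5% and 25.8% of all 11600 genes. Under the other 5 scalings control was lowest for 15 to 19 members, or 40.5% to 51.4%, beside 28.6% to 36.5% of all genes. The HSD1 plus BVT array was highest for 18 and lowest for 5, or 48.6% and 13.5%, beside 40.2% and 31.2% of all genes. Under normexp that array was highest for 9 and lowest for 12, or 24.3% and 32.4%, beside 26.8% and 44.1% of all genes. The HSD1 array was highest for 13 and lowest for 11, or 35.1% and 29.7%, close to the 34.0% and 26.3% of all genes. Under normexp the HSD1 array was highest for 22 and lowest for 6, or 59.5% and 16.2%, beside 48.8% and 19.4% of all genes. From the lowest to the highest array a member spanned a median of 0.40 on the log2 scale, beside 0.29 over all genes. These counts carry no test.

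**Figure D1:**
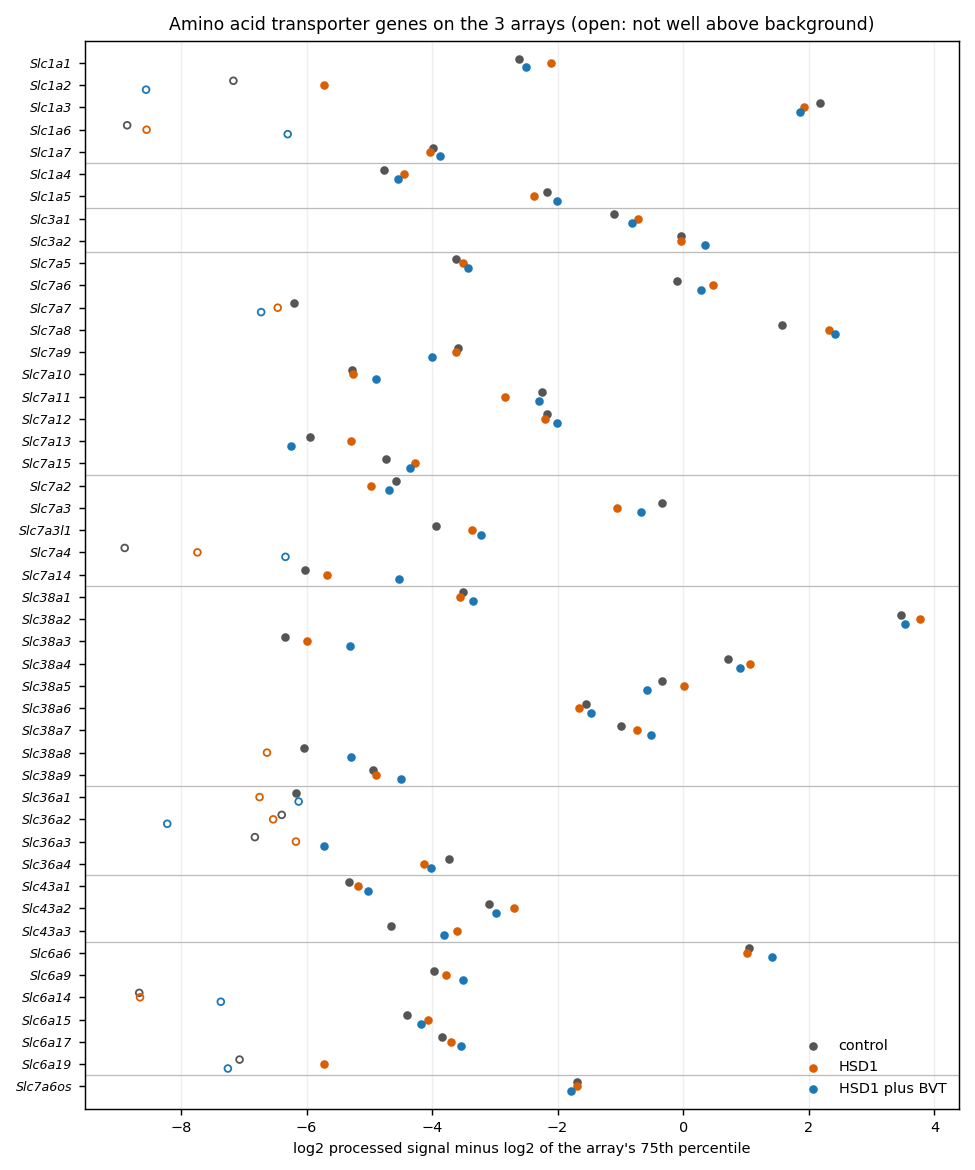
Level of each of the 47 amino acid transporter genes with a probe on the 3 arrays, as log2 processed signal minus log2 of the array's 75th percentile (horizontal axis), with 1 point per array and genes grouped by family between the grey lines. Filled points are well above background and open points are not; the 37 genes with 3 filled points are those measured on every array, and most of their points lie close together.

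**Figure D2:**
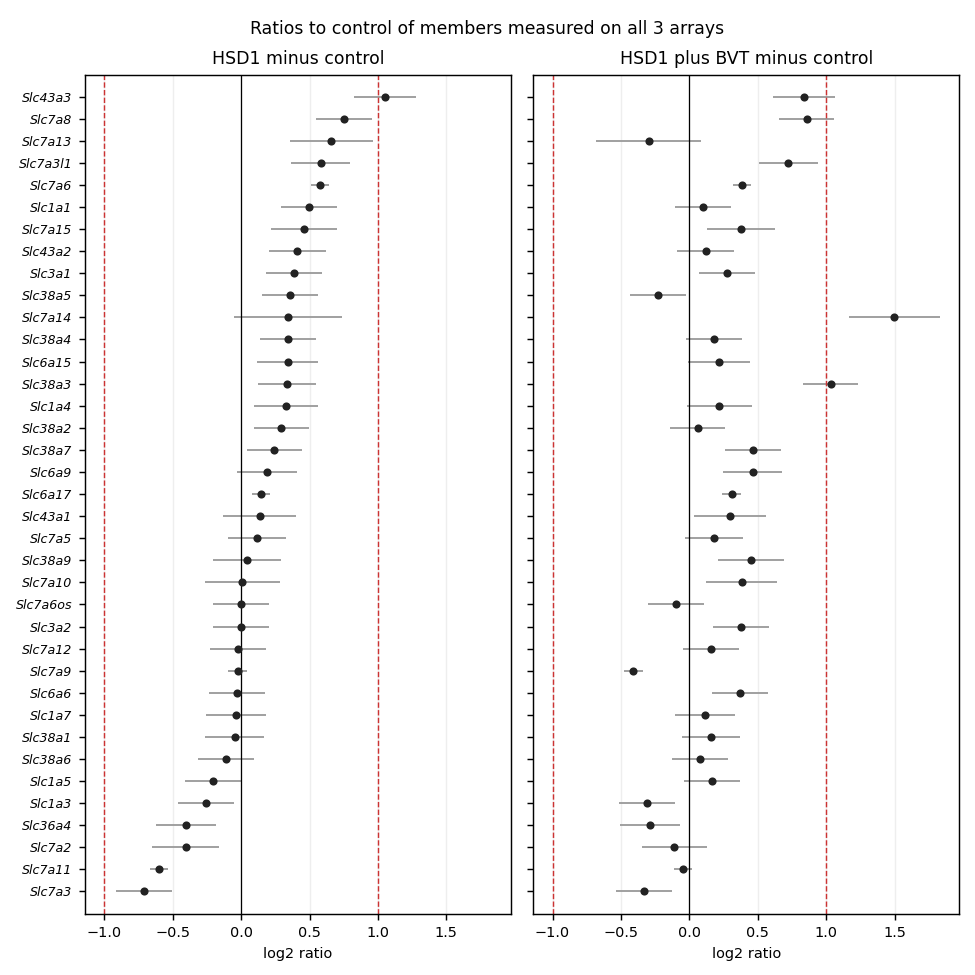
Log2 ratio of the 37 members measured on all 3 arrays, for HSD1 minus control (left) and HSD1 plus BVT minus control (right), ordered by the left panel. Bars are the scanner software's error, which covers the array alone, and red dashed lines mark 2-fold; Slc43a3 passes it on the left, and Slc7a14 and Slc38a3 on the right.

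Among the light chains of the heteromeric exchangers, Slc7a8 (LAT2, a carrier of large and small neutral amino acids) was bright and low on the control array alone. Its level was 1.56 in control, 2.32 with the vector and 2.42 with vector and inhibitor. The log2 ratio to control was 0.75 ± 0.20 with the vector, or 1.68-fold, and 0.86 ± 0.20 with vector and inhibitor, or 1.81-fold, both under 2-fold. Across 6 scalings, which include the authors' own deposited values, these ratios were 0.64 to 0.75 and 0.78 to 0.86. The inhibitor array was 0.11 above HSD1, less than the software's error.

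Slc7a6, the y+LAT2 exchanger of cationic for neutral amino acids, was printed 10 times on each array and was likewise lowest in control. Its spots had mean levels of -0.10 ± 0.03 in control, 0.48 ± 0.03 with the vector and 0.28 ± 0.03 with vector and inhibitor (SD between spots). The lowest HSD1 spot, at 0.42, lay above the highest inhibitor spot, at 0.33, and the lowest inhibitor spot, at 0.22, above the highest control spot, at -0.06. The spots of the 3 arrays thus did not overlap, which describes the arrays and not the cells. How many other probes printed 10 times did the same was not counted. Over 1275 such probes the median SD between spots was 0.05, 0.05 and 0.04 on the 3 arrays. All genes spanned a median of 0.29 from lowest to highest array. The log2 ratio was 0.58 for HSD1 against control, -0.20 for HSD1 plus BVT against HSD1 and 0.38 for HSD1 plus BVT against control.

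Slc7a11, the xCT light chain that takes up cystine in exchange for glutamate, was lowest on the HSD1 array. Over its 10 spots the level was -2.25 ± 0.07 in control, -2.85 ± 0.04 with the vector and -2.29 ± 0.08 with vector and inhibitor (SD between spots). The highest HSD1 spot, at -2.80, was below the lowest spot of the other arrays, which was -2.48 on the inhibitor array and -2.34 in control. As for Slc7a6, the share of other probes with such a gap was not counted. The log2 ratio was -0.60 with the vector and 0.56 when inhibitor was added, both under 2-fold and the latter within the range of 0.35 to 0.56 over the scalings. A second, dimmer Slc7a11 probe had levels of -5.34, -5.55 and -6.76 in the same order and was not well above background on the inhibitor array. Unlike the main probe, it was not higher there than in HSD1. By the floor estimate it was 2.22-fold lower, which is not a minimum.

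The remaining light chains differed less or were dim. Slc7a5 (LAT1, the leucine exchanger linked to mTORC1) had levels of -3.61, -3.50 and -3.43 in control, HSD1 and HSD1 plus BVT, within the software's error of each other. Slc7a13, a cystine and acidic amino acid light chain of the kidney, had levels of -5.95, -5.29 and -6.25, and a log2 ratio of -0.95 ± 0.37 for HSD1 plus BVT against HSD1. Slc7a9, which pairs with Slc3a1, had mean levels of -3.60, -3.62 and -4.00 over 9 or 10 spots, and its ratio to control with inhibitor was -0.41. Slc7a7 (y+LAT1) was well above background in control alone, at -6.19, and 1.42-fold lower in HSD1 plus BVT by the floor estimate. Over the 9 measured light chains the median log2 ratio was 0.11 for HSD1 against control, with 6 above 0, and 0.01 to 0.16 across the scalings.

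Of the heavy chains, Slc3a2 (4F2hc, the partner of Slc7a5, Slc7a6, Slc7a8 and Slc7a11) had levels of -0.03 in control, -0.03 with the vector and 0.35 with vector and inhibitor. The inhibitor array was highest, by 0.38 ± 0.20 over each of the others. Slc3a1 (rBAT), the other heavy chain, had levels of -1.10, -0.72 and -0.82. The partners thus did not share 1 order of arrays: Slc7a8 and Slc7a6 were lowest in control, Slc7a11 in HSD1, and Slc3a2 was level between those.

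**Figure D3:**
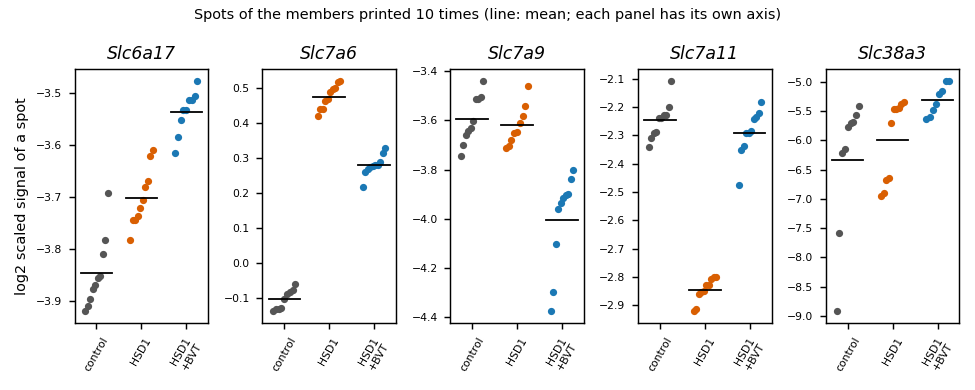
Level of every spot of the 5 members printed 10 times per array (vertical axis, log2 processed signal minus log2 of the array's 75th percentile), by array, with a line at the mean and a separate axis for each gene. The spots of Slc7a6 do not overlap between any arrays and those of Slc7a11 are lowest in HSD1, while Slc38a3 spreads over several log2 units in control. The share of other probes without overlap was not counted.

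The cationic carriers of the SLC7 family went different ways. Slc7a3 (CAT3, an arginine and lysine carrier) had levels of -0.34 in control, -1.05 with the vector and -0.68 with vector and inhibitor. It was lowest on the HSD1 array, with a log2 ratio of -0.71 ± 0.20 to control that was -0.75 to -0.67 across the scalings. Slc7a3l1, listed by RefSeq as like Slc7a3, had levels of -3.94, -3.36 and -3.22 and so was lowest in control; whether their probes share transcripts was not tested. Slc7a2 (CAT2) had levels of -4.57, -4.98 and -4.68, and a log2 ratio of -0.41 for HSD1 against control that was -0.03 under normexp. Slc7a14, a lysosomal family member of the nervous system, was dim, at -6.02, -5.67 and -4.52. It was higher on the inhibitor array, 2.22-fold over HSD1 and 2.83-fold over control. Under normexp these log2 ratios dropped to 0.22 and 0.49. The second Slc7a14 probe went the other way, with levels of -5.57, -5.45 and -6.13 and a signal not well above background on the inhibitor array. This second probe gave more signal than the main one on the control and HSD1 arrays. The main probe thus counted as brightest only through its inhibitor value, and its 2-fold calls are not independent of that choice. The summed level of the neural markers was 1.23, 2.05 and 2.15 in the same order. For HSD1 plus BVT against HSD1, these 5 markers had log2 ratios from -0.64 to 0.96, with 3 above 0 and 2 below. Their part in the Slc7a14 values was not tested.

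In the SLC38 family of sodium-coupled neutral amino acid carriers, 8 members were measured for HSD1 against control. Their median log2 ratio was 0.27, with 6 above 0 and none 2-fold, and the median was above 0 under all 6 scalings, at 0.13 to 0.27. Slc38a2 (SNAT2, the carrier that amino acid shortage raises) was bright, at 3.47 in control, 3.76 with the vector and 3.53 with vector and inhibitor. Its log2 ratio was 0.29 ± 0.20 with the vector. Slc38a1 (SNAT1) had levels of -3.51, -3.55 and -3.35, and Slc38a9, the arginine sensor of the lysosome, -4.94, -4.90 and -4.49. Slc38a4 (SNAT4) had levels of 0.72, 1.06 and 0.90 and Slc38a7, a lysosomal glutamine carrier, -0.99, -0.74 and -0.52. Slc38a5 (SNAT5, a glutamine carrier) was highest in HSD1, at -0.34, 0.02 and -0.57, and its log2 ratio for HSD1 plus BVT against HSD1 was -0.59 ± 0.20.

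Slc38a3 (SNAT3, a glutamine carrier) was the other member past 2-fold with vector and inhibitor, and it was close to background. Its mean level over the spots was -6.34 ± 1.16 in control, -6.00 ± 0.69 with the vector and -5.30 ± 0.26 with vector and inhibitor (SD between spots). Of the spots used, 7 of 9, 6 of 10 and 8 of 8 were well above background. The ratio to control was 2.05-fold from the means. From the spot medians the log2 ratio was 0.48, in the authors' deposited values 0.25 and under normexp 0.09, all below 2-fold. The spots of the control and inhibitor arrays overlapped, with a highest control spot of -5.42 and a lowest inhibitor spot of -5.64. Slc38a8, a glutamine carrier of the retina, was not well above background in HSD1. It was 2.14-fold higher in HSD1 plus BVT by the floor estimate, which is not a minimum.

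In the SLC43 family, Slc43a3 was the 1 member past 2-fold with the vector. It is known as a carrier of purine nucleobases and shares its family with the amino acid carriers Slc43a1 (LAT3) and Slc43a2 (LAT4). The level was -4.66 in control, -3.61 with the vector and -3.82 with vector and inhibitor, with control lowest and the other arrays 0.21 apart. The log2 ratio with the vector was 1.05 ± 0.22, or 2.07-fold, and 0.64 to 1.01 under the other 5 scalings, so the 2-fold call held in 2 of 6. With vector and inhibitor it was 0.84, or 1.79-fold, over control, and 0.37 under normexp. Endothelial markers differed in the same direction: all 5 measured were above 0 for HSD1 against control under all 6 scalings, with a median log2 ratio of 0.80, among them Pecam1 at 0.81, Kdr at 0.62 and Cdh5 at 0.53. Their part in the Slc43a3 value was not tested. Slc43a2 had levels of -3.10, -2.69 and -2.98, and its second probe -3.56, -3.34 and -2.92. The probes shared the direction for HSD1 against control, at 0.41 and 0.23, and went opposite ways for HSD1 plus BVT against HSD1, at -0.29 and 0.42. Slc43a1 had levels of -5.32, -5.18 and -5.02.

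The sodium-coupled glutamate carriers and the neutral exchangers of the SLC1 family stayed under 2-fold where measured. Slc1a3 (GLAST, a glutamate and aspartate carrier) was bright and highest in control, at 2.17, 1.92 and 1.87. Its second probe gave -1.18, -1.36 and -1.51, the same order of arrays, with log2 ratios to control of -0.31 and -0.32 from the 2 probes when vector and inhibitor were both present. Slc1a1 (EAAT3, which also carries cysteine) was highest in HSD1, at -2.61, -2.11 and -2.51. Slc1a5 (ASCT2, the glutamine exchanger) had levels of -2.17, -2.38 and -2.01 and Slc1a4 (ASCT1) -4.77, -4.44 and -4.55. Slc1a2 (GLT-1) was dim, and its second probe, at -7.18, -7.00 and -7.60, was not well above background on any array. Its main probe was well above background in HSD1 alone, at -5.71, and there 2.08-fold above control by the floor estimate. Slc36a2 reached -6.39 on the control array without being well above background, so 2.08 is not a minimum.

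Of the sodium- and chloride-coupled SLC6 carriers, Slc6a6 (TauT, which takes up taurine, an abundant amino acid of heart muscle) had levels of 1.04, 1.01 and 1.42. The inhibitor array was highest, 0.40 ± 0.20 above HSD1 and 0.37 above control. Slc6a9 (GlyT1) had levels of -3.97, -3.78 and -3.50 and its second probe -5.26, -5.01 and -4.70, so both were highest with inhibitor. Slc6a17, a neutral amino acid carrier of synaptic vesicles, followed the same order, at -3.85, -3.70 and -3.54 over 9 or 10 spots, although its log2 ratio for HSD1 plus BVT against HSD1 was -0.06 under normexp. Slc6a15 had levels of -4.40, -4.06 and -4.18. All 4 were above 0 for HSD1 plus BVT against control under each of the 6 scalings, with a median log2 ratio of 0.34 and 0 past 2-fold. Slc6a19, the neutral amino acid carrier of gut and kidney, was well above background in HSD1 alone. It was 2.07-fold above control there by the floor estimate, which is not a minimum.

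Of the 4 SLC36 carriers, which include the lysosomal carrier Slc36a1 (PAT1), Slc36a4 was the 1 measured on all arrays. Its levels were -3.73, -4.13 and -4.01, while its second probe gave -4.61, -4.35 and -4.69 and so a log2 ratio for HSD1 against control of 0.26 in place of -0.40. Slc36a1 was well above background in control alone, at -6.16, and 1.17-fold lower in HSD1 by the floor estimate. Slc36a3 was well above background in HSD1 plus BVT alone, 2.07-fold above control by the same estimate, which is not a minimum. Slc7a6os, which shares its symbol's start with Slc7a6 but names no carrier, had levels of -1.69, -1.69 and -1.78.

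**Figure D4:**
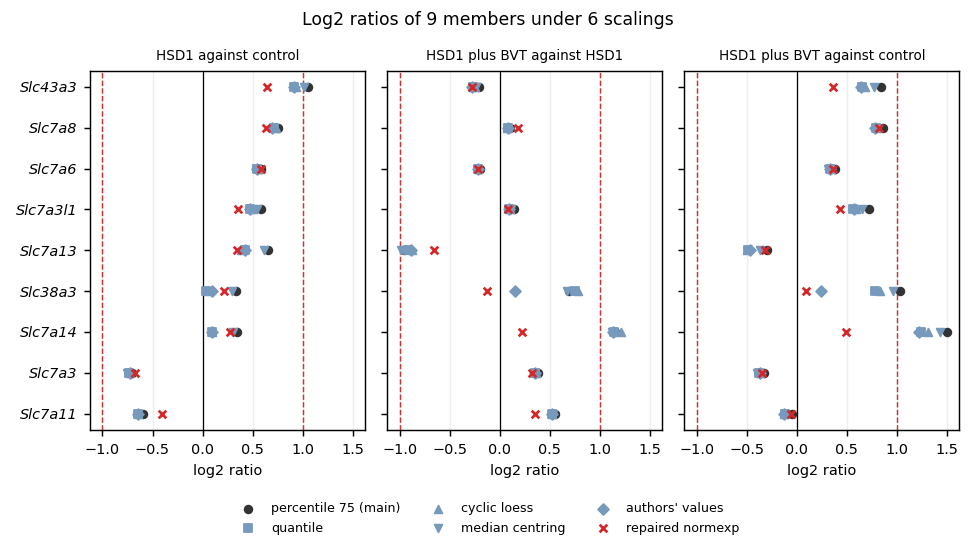
Log2 ratio of 9 members (horizontal axis) under 6 ways to scale the same 3 arrays, 1 panel per comparison, with red dashed lines at 2-fold. Slc7a8, Slc7a6 and Slc7a3 keep nearly the same ratio under each scaling, whereas the dim Slc7a14 and Slc38a3 move toward 0 under normexp.

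The genes that respond to amino acid shortage through ATF4 are given from a list of 34, of which 30 were measured for HSD1 against control. None was 2-fold or more in any comparison. In HSD1, 21 of 30 were below control, with a median log2 ratio of -0.14 beside 0.06 over all genes, and that median was -0.19 to -0.10 across the scalings. With inhibitor added, 23 of 30 were above HSD1, with a median of 0.17 beside 0.01 over all genes. Both comparisons use the HSD1 array. Asns (asparagine synthetase) had levels of 0.57, -0.23 and 0.36 in control, HSD1 and HSD1 plus BVT, lowest in HSD1, with a log2 ratio of -0.81 with the vector and 0.59 when inhibitor was added. Psat1, an enzyme of serine synthesis, had levels of 1.59, 1.04 and 1.52, the same pattern, and Atf5 levels of -0.56, -0.82 and -0.05. Atf4 itself was nearly level, at 4.12, 3.99 and 4.13. Among the transporters, Slc7a11 and Slc7a3 were also lowest in HSD1 under all 6 scalings. So were Slc1a5 and Slc38a6, and by a slight margin below control Slc3a2 and Slc6a6. In the main scaling 11 of 37 members were lowest in HSD1, or 29.7%, beside 26.3% of all genes. The second Slc7a11 probe was instead lowest on the inhibitor array, where it was not well above background. Slc38a2 was among the members highest in HSD1 under all 6 scalings. For HSD1 plus BVT against control the list's median was 0.03, and it was above 0 under 1 of the 6 scalings.

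Promoter windows from RefSeq (assembly GRCr8) were searched for letters that ATF4 and other regulators are known to bind, on both strands of the 250 bases before each start site. The table held 43 windows of 39 of the 54 members, since a gene can have several starts, among 33469 windows in all. Of these, 2 members held the composite C/EBP-ATF core TTGCATCA, as did 0.693% of all windows. They are shown because ATF4 is a known link between amino acid shortage and carrier genes, with Slc7a11 and Slc7a8 beside them as the carriers with 1 array standing apart. Capitals mark the match, each window is read 5′ to 3′ on the gene's own strand, which is minus for all 4, and the last base lies next to the start site. The windows are chr14:98761563-98761812 for Slc1a4, chr7:129681402-129681651 for Slc38a1, chr2:136668265-136668514 for Slc7a11 and chr15:32212716-32212965 for Slc7a8.
Slc1a4: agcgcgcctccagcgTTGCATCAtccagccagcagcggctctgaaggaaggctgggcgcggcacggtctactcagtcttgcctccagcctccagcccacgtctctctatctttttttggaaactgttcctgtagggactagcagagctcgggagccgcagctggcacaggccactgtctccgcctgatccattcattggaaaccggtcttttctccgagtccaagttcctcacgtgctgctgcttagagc
Slc38a1: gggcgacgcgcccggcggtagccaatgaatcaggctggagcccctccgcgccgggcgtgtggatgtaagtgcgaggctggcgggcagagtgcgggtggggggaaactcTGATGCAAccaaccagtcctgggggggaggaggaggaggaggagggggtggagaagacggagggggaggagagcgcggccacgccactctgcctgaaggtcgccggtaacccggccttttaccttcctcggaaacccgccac
Slc7a11: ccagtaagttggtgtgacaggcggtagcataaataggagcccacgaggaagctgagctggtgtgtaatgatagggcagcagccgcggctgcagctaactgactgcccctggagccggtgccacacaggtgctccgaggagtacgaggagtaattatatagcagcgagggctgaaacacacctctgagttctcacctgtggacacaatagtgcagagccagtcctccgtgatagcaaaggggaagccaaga
Slc7a8: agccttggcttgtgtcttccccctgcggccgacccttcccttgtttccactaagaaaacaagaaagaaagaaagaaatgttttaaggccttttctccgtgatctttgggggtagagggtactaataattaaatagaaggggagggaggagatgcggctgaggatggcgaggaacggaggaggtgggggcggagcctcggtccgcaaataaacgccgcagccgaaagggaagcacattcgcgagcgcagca
The match begins at -235 from the start in Slc1a4, and in Slc38a1 it begins at -142 in the reverse strand's letters TGATGCAA. On the arrays, Slc1a4 was lowest in control under 3 of the 6 scalings and Slc38a1 nearly level, while Slc7a11, with no match in its window, was lowest in HSD1. The antioxidant response element core TGACNNNGC stood in 8 members (Slc3a1, Slc3a2, Slc6a6, Slc7a1, Slc7a7, Slc36a1, Slc38a2 and Slc38a8) and in 10.1% of all windows. The cAMP response element TGACGTCA stood in Slc38a6 alone and in 1.59% of all windows, and the palindromic glucocorticoid response element in 0 of 39 members and 0.373% of all windows. The motifs can overlap. A match describes letters and is no evidence of binding, and its absence speaks only of these windows.

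Genes around the carriers were read from 4 further lists. Of 14 measured regulators of carrier traffic, Sgk1, a glucocorticoid-responsive kinase that keeps carriers at the cell surface, had levels of -1.37, -0.09 and -0.16. It was 2.44-fold above control in HSD1 and 2.32-fold in HSD1 plus BVT, past 2-fold under all 6 scalings. Klf15, a transcription factor that glucocorticoids raise in the heart, had levels of 0.27, 1.49 and 0.92 and was 2.32-fold above control in HSD1. Of 43 measured enzymes of glutamate, branched-chain, arginine and sulphur amino acids, Prodh (proline dehydrogenase) had levels of -0.43, 1.32 and 1.15. Its log2 ratio to control was 1.75 with the vector, or 3.36-fold, and 1.58 with vector and inhibitor. It was the 1 enzyme past 2-fold, and the list's median for HSD1 against control was 0.09. Of 31 measured genes of mTORC1 and its amino acid sensors, Klf15 and Kics2 were higher in HSD1, the latter 2.02-fold and past 2-fold under the percentile scaling alone, and the median was 0.01. Of 19 measured other amino acid and peptide carriers, 0 were past 2-fold and the median was 0.13. Over all genes, 1.89% were past 2-fold for HSD1 against control, with a median of 0.06. For HSD1 plus BVT against control 3.69% were.

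**Figure D5:**
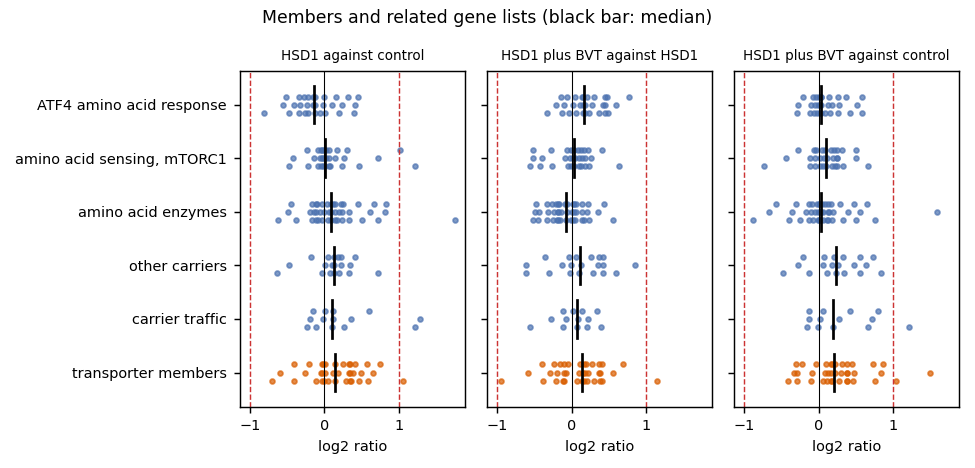
Log2 ratio of each measured gene (points) of the transporter members (orange) and the 5 related lists (blue), 1 panel per comparison, with black bars at the medians and red dashed lines at 2-fold. The ATF4 list lies mostly below 0 for HSD1 against control and mostly above 0 for HSD1 plus BVT against HSD1, with no gene past 2-fold.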

How the data were processed

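The authors deposited 1 scanner file per array, and per the file headers the intensity values are Agilent Feature Extraction 11.0.1.1 processed signals, background-subtracted and linear, with the median spot and local background signals. They also deposited a table of log2 values; the sources used here do not name its software. Here, log2 processed signal minus log2 of each array's 75th percentile over all spots other than controls (1320, 1169 and 1549 in control, HSD1 and HSD1 plus BVT) was taken, outlier spots (311, 409 and 363) were dropped, and a probe's spots were averaged. A probe counted as well above background when a share of at least 0.5 of its spots did. Probes were named by accession through a RefSeq table of assembly GRCr8: of 30367, 18005 matched 1 gene and 12362 none. The array was annotated on an older build. Among 1390 probes printed 10 times, 1275 were well above background throughout, and a ratio of single spots had a median SD of 0.069, 0.067 and 0.065 (log2) in the 3 comparisons. It was 0.12 for the dimmest 25%. The number of arrays, 1 per group, limits the precision, and no test was run. The calculation was tested on simulated data. Alternatives used R 4.3.3 and limma 3.58.1: quantile, cyclic loess, median centring, normexp (offset 50), the authors' log2 values, no filter on dim probes, the mean of all probes, the dimmer probe, and the median of spots. The members, the related lists and the motifs were chosen with earlier results of these data known. Named with values were members past 2-fold and the 3 highest and 3 lowest of each comparison. So were those with a floor estimate of 2-fold or more and a set chosen for their role. From other lists, genes past 2-fold or the most extreme were named. Other members were named with values where they complete a family. Atf4, Psat1 and Atf5, and the endothelial markers named, were picked after their values were seen.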

Additional observations from a re-analysis of the deposited data

How the results depend on the processing

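For HSD1 against control, the count of members past 2-fold was 0 under quantile normalization, cyclic loess, normexp and the authors' values. Of all genes, 1.77%, 1.74%, 0.783% and 1.71% were called there, in the same order. Without the filter on dim probes the count was 4 of 47, where 7.20% of all 15155 genes were called. The median of the members was 0.0311 under quantile normalization, 0.0450 under cyclic loess and 0.0367 in the authors' values. Over all genes it was -0.0105 under each of them. For HSD1 plus BVT against HSD1, normexp gave a count of 0, where 0.666% of all genes were called. The members' median under normexp was -0.0977, beside -0.0815 over all genes. Without the filter on dim probes the count was 8 of 47, where 10.1% of all genes were called. For HSD1 plus BVT against control, the count was 1 under quantile normalization, cyclic loess, median centring, the authors' values and the median of spots. Under these 2.89% to 3.69% of all genes were called. The count was 0 under normexp, where 1.16% of all genes were called, and 8 without the filter, where 9.56% were. The members' median was 0.0880 under quantile normalization, 0.0940 under cyclic loess, 0.131 under median centring, 0.0207 under normexp and 0.0852 in the authors' values. Over all genes it was -0.0445, -0.0291, -0.0211, -0.0155 and -0.0451 in the same order. The genes counted without the filter include ones not well above background, and the cause of the other shifts was not tested. Over all genes, quantile normalization gave 118 higher and 92 lower for HSD1 against control, where the percentile gave 159 and 65, and 194 and 154 for HSD1 plus BVT against control, where it gave 345 and 88. Under normexp 16 of 64 values of named members were counted as moved. That count leaves out some shifts wider than the median SD of a ratio of single spots. An example is Slc7a8, from 0.75 to 0.64 for HSD1 against control. Normexp was not run as first written: the files give median and not mean spot signals, and 4 HSD1 spots had a local background so high that it broke the fit, so flagged backgrounds were set to the array's median, a choice made after seeing the data. The dimmer probe and the median of spots were also added then. No paired analysis was possible because each group has 1 array.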

Other observations

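Second probes allow a check of single members within these arrays. Of the members with both probes well above background on the arrays compared, the probes had the same sign in 7 of 8 for HSD1 against control, in 3 of 6 for HSD1 plus BVT against HSD1 and in 6 of 6 for HSD1 plus BVT against control. Their median absolute difference in log2 ratio was 0.18, 0.34 and 0.16 in the same order.

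By the RefSeq gene order, Slc38a1, Slc38a2 and Slc38a4 follow each other with 0 protein-coding genes between them, as do Slc36a3, Slc36a2 and Slc36a1. For HSD1 against control, the log2 ratios of the former neighbours were -0.05, 0.29 and 0.34. Slc7a6 and Slc7a6os are also adjacent and do not overlap. Their log2 ratios for HSD1 against control were 0.58 and 0.00. Slc43a1 and Slc43a3 have 1 protein-coding gene between them, and their ratios were 0.14 and 1.05. The promoter windows of the members had a median GC content of 55.6%, beside 51.2% over all windows.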
